A study of Mus musculus with 3 samples.

Results

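Map2k1, Map2k2, Mapk3, Braf, Araf, Hras and Nras are 7 genes of the RAS, RAF, MEK and ERK cascade, and they were taken by symbol from the 27998 genes listed in each count matrix. Each symbol named 1 row, and all 7 genes had UMIs in all 3 libraries. The study profiled single cells of the dorsal cortex of mouse pups with droplet-based 10x Genomics 3' sequencing, and each of 3 genotypes has 1 library. In the Emx1-Cre; MAP2k1/2-dcko mice, Cre is driven by Emx1, which is active in dorsal cortical progenitors from early neurogenesis. In the hGFAP-Cre; MAP2k1/2-dcko mice, Cre is driven by the human GFAP promoter, which is active in cortical radial glia later in gestation. The control mice, whose genotype field reads WT, carried floxed Map2k1 and Map2k2, so none of the 3 genotypes has unmodified alleles of both genes. All groups received FlashTag, which stains cells as they divide beside the ventricle, on embryonic day 18, and the tdTomato+ cells of the cortex were sorted on postnatal day 2. The allele that carries tdTomato and the number of pups behind a library are not given in the sources used here.

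The cascade carries signals from growth factor receptors to the nucleus. Active receptors recruit exchange factors that load the small GTPases Hras and Nras with GTP, the loaded GTPases activate the RAF kinases Braf and Araf, and RAF phosphorylates the MEK kinases, which Map2k1 (MEK1) and Map2k2 (MEK2) encode. MEK phosphorylates the ERK kinases, of which Mapk3 encodes ERK1, and ERK then acts on transcription factors and on its own inhibitors. Each tier holds paralogues with overlapping roles, and in the embryonic cortex the pathway is known for its part in the switch of progenitors from neurons to glia.

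The 7 genes lie on 6 chromosomes. In GRCm38, with the GENCODE M21 annotation, Map2k1 spans chr9:64185770-64253631 on the minus strand, Map2k2 chr10:81105915-81133975 on the plus strand and Mapk3 chr7:126759601-126765819 on the plus strand. Braf spans chr6:39603237-39725463 on the minus strand and Araf chrX:20797814-20860519 on the plus strand. Hras spans chr7:141189105-141194005 on the minus strand and Nras chr3:103058285-103067914 on the plus strand. All 7 are annotated as protein-coding. The coding sequences of Map2k1 and Map2k2, of 1182 and 1206 bases, were identical at 78.4% of 1178 aligned bases, and those of Hras and Nras, of 570 bases each, at 75.9% of 569 aligned bases.

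Short coding stretches are shown for the MEK and RAS pairs, whose transcripts are counted apart below. The counted 3' tags need not lie in these stretches. The MEK stretches lie in exon 6 of each transcript and encode part of the activation segment, which holds the serines that RAF phosphorylates. They were read from GRCm38 at chr9:64193702-64193761 (minus strand) and chr10:81119322-81119381 (plus strand), 5' to 3', with capitals at the 11 of 60 bases that differ.
Map2k1: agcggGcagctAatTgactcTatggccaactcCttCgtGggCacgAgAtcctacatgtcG
Map2k2: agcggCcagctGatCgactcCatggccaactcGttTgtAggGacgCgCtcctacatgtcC

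The RAS stretches are the last 60 coding bases, stop codon included, in exon 5. They encode the tail that differs most between RAS proteins and that is lipidated to hold them at membranes. They lie at chr7:141191348-141191407 (minus strand) and chr3:103063390-103063449 (plus strand), with capitals at the 30 of 60 bases that differ.
Hras: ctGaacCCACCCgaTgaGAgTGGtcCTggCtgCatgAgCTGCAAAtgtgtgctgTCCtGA
Nras: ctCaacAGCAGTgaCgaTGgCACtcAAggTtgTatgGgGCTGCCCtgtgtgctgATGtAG

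The libraries held 13214 barcodes (Emx1-Cre), 13139 (hGFAP-Cre) and 11886 (control), with 84016524 (Emx1-Cre), 89917586 (hGFAP-Cre) and 85480826 UMIs (control). After filtering, 12196 Emx1-Cre, 12063 hGFAP-Cre and 9513 control cells were kept, with medians of 4988.5 (Emx1-Cre), 5318 (hGFAP-Cre) and 6427 UMIs (control). Pairs of libraries shared 43 to 54 barcode sequences. The lowest UMI count of a called barcode was 2644 (Emx1-Cre), 3065 (hGFAP-Cre) and 500 (control), so the control matrix reaches to shallower barcodes. As CPM, a gene's UMIs per 1000000 UMIs of the same cells, Xist stood at 0.155 CPM (Emx1-Cre), 0.823 CPM (hGFAP-Cre) and 1585 CPM (control), and Ddx3y, a Y-linked gene, at 37.5 CPM (Emx1-Cre), 45.9 CPM (hGFAP-Cre) and 0 CPM (control; a count of 0 in the control allows up to 0.0351 CPM), so sex and genotype cannot be told apart. The cells formed 29 clusters, of which 24 were named in 10 classes from their markers. Cluster 13, led by Dbx2, Olig1, Olig2 and Egfr, stayed unnamed and is described by these genes.

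Every level below is the CPM of UMIs summed over the cells of a class in a library, and its interval is an exact Poisson 95% interval. UMIs are not scaled to transcript length and transcripts differ in capture, so levels are compared between classes and genotypes within a gene. These intervals hold counting error alone. Since no genotype has a second library, no test between genotypes was possible and no p-value is given. Fewer transcripts per cell and a shift in the states that make up a class cannot be told apart in a class sum.

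In the control, Hras was highest in the Cajal-Retzius-like cells, the early-born reelin neurons of the cortical surface. It had 371 CPM there (346 to 398, 107 cells) and 261 CPM (255 to 267, 4099 cells) in projection neuron-like cells. Next came interneuron lineage-like cells with 209.7 CPM (195 to 225, 838 cells), endothelial-like cells with 195 CPM and microglia-like cells with 183 CPM, and these neighbours had overlapping intervals. The progenitors and glia were lowest, with 149.8 CPM in the excitatory intermediate progenitor-like cells (1398 cells), 139.6 CPM in astroglia-like cells (1619 cells), 139.3 CPM in oligodendrocyte precursor-like cells (65 cells) and 128 CPM in the Dbx2 and Olig1 cluster (909 cells). Both neuronal classes at the top were apart from all classes below them as class sums. The projection neuron-like value rested on cluster 21 (led by Inhba and Prss12), which had 393 CPM in 529 control cells, while clusters 0, 5, 7 and 10 had 186, 186, 208.5 and 174.7 CPM.

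Nras ran close to the other way. It was lowest in Cajal-Retzius-like cells, at 48.4 CPM (39.5 to 58.65), apart from all other classes except the oligodendrocyte precursor-like cells, whose interval reached down to 58.63 CPM. Projection neuron-like cells followed with 73.6 CPM (70.5 to 76.8), and interneuron lineage-like cells had 76.1 CPM. The highest levels were 103 CPM in endothelial-like cells (87.5 to 120.2), 102 CPM in astroglia-like cells (97.0 to 108) and 99.8 CPM in the Dbx2 and Olig1 cluster, which overlapped. From lowest to highest the range was 2.13-fold for Nras and 2.89-fold for Hras.

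Of the RAF kinases, Araf, on the X chromosome, had the widest range of the 7 genes, 8.04-fold. It stood at 223 CPM in Cajal-Retzius-like cells (204 to 244.5) and at 27.8 CPM in microglia-like cells (22.1 to 34.6, 241 cells), both apart from their neighbours in the order. Between them lay projection neuron-like cells with 98.9 CPM, interneuron lineage-like cells with 90.8 CPM, astroglia-like cells with 78.2 CPM, the intermediate progenitor-like cells with 53.0 CPM and endothelial-like cells with 46.6 CPM. Braf was lower in counts and its classes were harder to separate: no class was apart from the next in the order. Its ends were apart, with 60.7 CPM in oligodendrocyte precursor-like cells (42.1 to 84.9, from 34 UMIs) and 18.9 CPM in microglia-like cells (14.2 to 24.6), a 3.22-fold range. Cajal-Retzius-like cells had 47.4 CPM of Braf, interneuron lineage-like cells 42.0 CPM, projection neuron-like cells 36.8 CPM and astroglia-like cells 26.3 CPM.

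The MEK paralogues contrasted in their spread. Map2k2 was nearly even, with 217 CPM in Cajal-Retzius-like cells (198 to 238), 213 CPM in projection neuron-like cells and 188 CPM in astroglia-like cells. Its lowest values, 155 to 156 CPM, were in the microglia-like, oligodendrocyte precursor-like and endothelial-like cells. Its highest level was 1.40-fold its lowest. On the same scale with a pseudocount of 5 CPM, 0.924% of the 9305 genes with a mean of 10 CPM or more over these classes varied less, and the median gene varied 3.42-fold (quartiles 2.21 and 8.77). On that scale the other members lay within the broad middle of all genes: 18.3% of genes varied less than Nras, 39.5% less than Braf, 40.8% less than Hras, 57.7% less than Map2k1, 66.1% less than Mapk3 and 70.6% less than Araf. Counting error widens the range of genes with few UMIs. The mean of Map2k2 was above that of 95.4% of all genes with a UMI in these classes. These percentages were not adjusted for level. Map2k1 varied 7.16-fold without a pseudocount and 4.204-fold with it. Its highest levels were outside the neural lineages, 38.8 CPM in microglia-like cells (32.0 to 46.7) and 31.7 CPM in endothelial-like cells (23.5 to 41.9), and both overlapped with Cajal-Retzius-like cells at 30.5 CPM and oligodendrocyte precursor-like cells at 26.8 CPM. Astroglia-like cells had 21.6 CPM of Map2k1 and the Dbx2 and Olig1 cluster 20.5 CPM, and both were above the intermediate progenitor-like cells, at 13.1 CPM, and projection neuron-like cells, at 11.8 CPM. Interneuron lineage-like cells had the least, 5.42 CPM (3.31 to 8.37, from 20 UMIs), apart from all other classes.

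Mapk3, which encodes ERK1, formed a high group of 3 classes with overlapping intervals: Cajal-Retzius-like cells with 155 CPM (139 to 173), microglia-like cells with 143 CPM (129 to 157) and endothelial-like cells with 135 CPM (118 to 155). All other classes were below them. Projection neuron-like cells had 70.6 CPM, with 111 CPM in cluster 21 and 57.1, 48.8, 47.6 and 49.9 CPM in clusters 0, 5, 7 and 10. Interneuron lineage-like cells had 62.3 CPM, astroglia-like cells 59.4 CPM and the Dbx2 and Olig1 cluster 55.7 CPM. The intermediate progenitor-like cells had 46.1 CPM (42.7 to 49.8), and oligodendrocyte precursor-like cells were lowest with 23.2 CPM (12.4 to 39.7, from 13 UMIs).

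**Figure D1:**
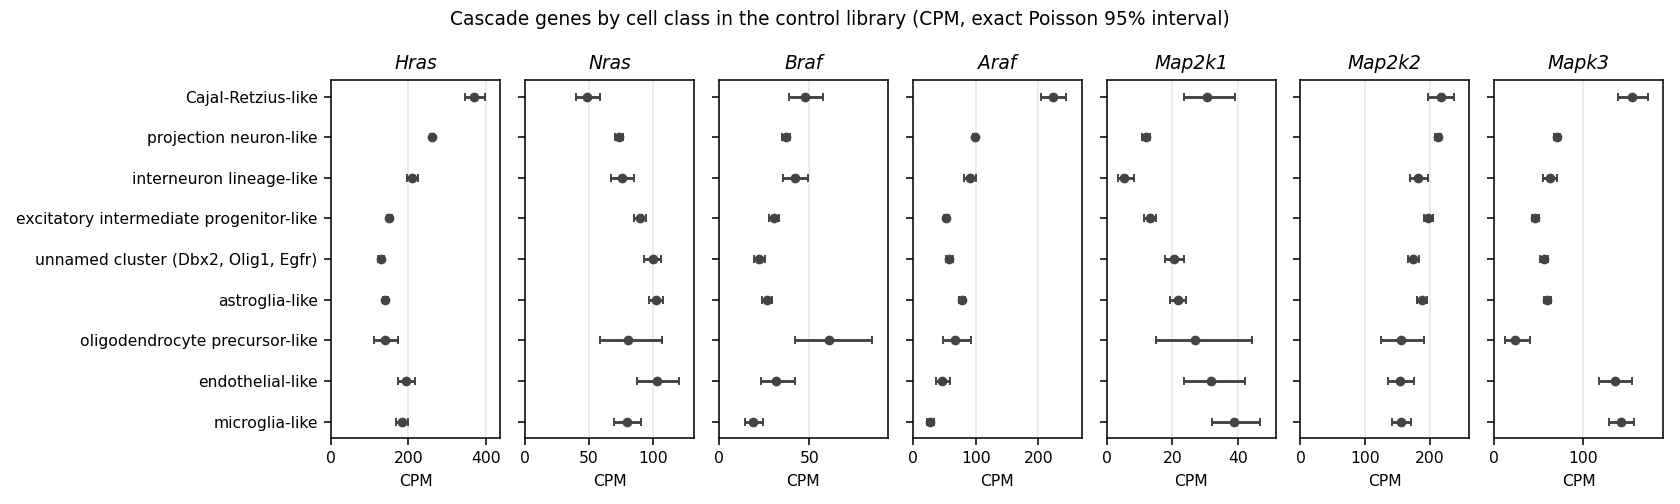
Level of each of the 7 genes in the control library (x axis, CPM, a scale of its own per gene) in 9 cell classes (y axis). Points are CPM of summed UMIs and bars exact Poisson 95% intervals. Hras and Araf peak in Cajal-Retzius-like cells at 371 and 223 CPM, Map2k1 peaks in microglia-like cells at 38.8 CPM, and Map2k2 stays between 155 and 217 CPM.

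Few cells held a UMI of the less captured members. In control astroglia-like cells thinned to 2500 UMIs each, which left out 19 shallower cells, 5.3% held a UMI of Map2k1, 6.9% of Braf, 13% of Mapk3 and 37.6% of Map2k2. Before thinning these shares were 16.2%, 19.0%, 35.6% and 74.1%. No cell class here is known to lack the 7 genes. As a scale for free RNA, the microglial gene C1qa stood at 2.58 CPM in control projection neuron-like cells, 0.0632% of its level in the microglia-like cells.

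The genes whose levels most resembled each member over the 9 control classes were found by Pearson's r of log2(CPM + 5), among 6382 genes. The 9 classes come from 1 library, and r is given as a description. Araf was closest to Ubxn6 (r = 0.99) and Ndufb10 (r = 0.98), Braf to Golga3 (0.98) and Camsap2 (0.95), and Mapk3 to Cept1 (0.97) and Flii (0.93). Hras was closest to Setd3 and Clstn2 (both 0.96), Nras to Pak2 and Mpp5 (both 0.94), Map2k1 to Tmf1 and Efr3a (both 0.95) and Map2k2 to Ndufaf3 (0.96) and Arhgef25 (0.95).

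The balance of a pair is given as the share of the pair's UMIs that fell to one paralogue, with an exact Clopper-Pearson 95% interval. Since the paralogues may be captured unequally, a share is read across classes and libraries and not as a ratio of molecules. Map2k1 took 7.82% of the MEK pair's UMIs over all control cells (7.41 to 8.24). The share was highest in microglia-like cells, at 19.97% (16.7 to 23.5), followed by endothelial-like cells at 17.0%, oligodendrocyte precursor-like cells at 14.7% and Cajal-Retzius-like cells at 12.3%. Astroglia-like cells, at 10.3% (9.19 to 11.5), were apart from the intermediate progenitor-like cells at 6.21% (5.37 to 7.13) and projection neuron-like cells at 5.27% (4.74 to 5.84), and interneuron lineage-like cells had 2.89% (1.77 to 4.42). The glial, vascular and immune classes thus had larger Map2k1 shares than the projection neuron and interneuron lineages, while Map2k2 made up most of the pair's UMIs in every class.

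Hras took 70.0% of the Hras and Nras UMIs over all control cells (69.4 to 70.6). Its share was 88.5% in Cajal-Retzius-like cells (86.2 to 90.5), 78.0% in projection neuron-like cells (77.2 to 78.8) and 73.4% in interneuron lineage-like cells. It was 62.5% in the intermediate progenitor-like cells (60.8 to 64.1), 57.7% in astroglia-like cells (56.0 to 59.4) and 56.3% in the Dbx2 and Olig1 cluster (54.1 to 58.4). Along the excitatory lineage the projection neuron-like cells were thus apart from the progenitors, and astroglia were lower still. Braf took 28.5% of the Braf and Araf UMIs, with 17.5% in Cajal-Retzius-like cells (14.5 to 20.9) and 47.2% in oligodendrocyte precursor-like cells (35.3 to 59.3). Astroglia-like cells had a Braf share of 25.2% (22.9 to 27.5) and intermediate progenitor-like cells one of 36.4% (33.6 to 39.2), which were apart.

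Within the control classes, cells in which Mki67 or Top2a had a UMI were set against the other cells. Both genes are known from dividing cells, and a single UMI of either was enough. A value was called higher or lower when CPM plus 5 differed at least 1.5-fold and the intervals were apart, among genes at 10 CPM or more on either side. In the intermediate progenitor-like cells Map2k1 was 15.9 CPM in the 645 cells with such a UMI and 7.64 CPM in the 753 others, a log2 ratio of 0.72. It reached 10 CPM only in the cells with such a UMI, so it could be called higher but not lower. It was the only one of the 7 called there, 1 higher and 0 lower, where the same rule called 19.7% of all genes higher and 22.1% lower. In astroglia-like cells Araf was 48.9 CPM in the 285 cells with such a UMI and 88.9 CPM in the 1334 others, a log2 ratio of -0.80, and 1 member was lower and 0 higher against 15% and 9.48% of all genes. Shares of called members were near the background in both classes. Map2k1 was not called in the other control classes split this way. Its log2 ratios were -0.13 (astroglia-like), -0.34 (projection neuron-like) and -0.17 (Dbx2 and Olig1 cluster). In the intermediate progenitor-like cells of the mutants its ratios were -0.05 (Emx1-Cre) and 0.32 (hGFAP-Cre), with no call.

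The 2 mutant libraries were each set against the control by the same rule, in classes with at least 50 cells in both libraries. Comparisons of the mutants share the control library. The targeted genes come first. Over all kept cells Map2k1 stood at 13.9 CPM (13.1 to 14.8) in the Emx1-Cre mutant, 16.2 CPM (15.4 to 17.2) in the hGFAP-Cre mutant and 16.7 CPM (15.8 to 17.6) in the control. Map2k2 stood at 217 CPM (214 to 220) in the Emx1-Cre, 214 CPM (211 to 218) in the hGFAP-Cre and 196 CPM (193 to 199) in the control library. These 3' tags need not lie in the deleted part of either gene, so the levels check neither the deletion nor the labels.

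Over all kept cells Mapk3 was the one member called in either mutant, lower in both. It stood at 43.2 CPM (41.7 to 44.7) in the Emx1-Cre mutant, 36.8 CPM (35.5 to 38.2) in the hGFAP-Cre mutant and 67.4 CPM (65.6 to 69.2) in the control, with log2 ratios of -0.59 and -0.79. The rule called 18.8% of all genes lower and 11.4% higher in the Emx1-Cre mutant, and 12.1% lower and 9.26% higher in the hGFAP-Cre mutant. Class makeup differed between these libraries: astroglia-like cells made up 15.6%, 20.2% and 17.0% of cells, and Cajal-Retzius-like cells 11.5%, 3.11% and 1.12%, in the Emx1-Cre, hGFAP-Cre and control libraries.

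Class by class, 6 of 49 member values in 7 classes were lower and 0 higher in the Emx1-Cre mutant. In its Cajal-Retzius-like cells 2 of 7 members were lower and 0 higher, against 15.2% and 5.1% of all genes. In its microglia-like cells 2 were lower and 0 higher, against 19.5% and 9.17%. One member each was lower in astroglia-like cells, against 34.2% lower and 9.72% higher of all genes, and in oligodendrocyte precursor-like cells, against 6.79% and 5.46%. None was called in projection neuron-like cells (21.7% lower and 6.63% higher of all genes), intermediate progenitor-like cells (21.4% and 7.57%) or interneuron lineage-like cells (7.46% and 6.74%). With 7 members, counts of 0 to 2 lie close to these percentages.

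In the hGFAP-Cre mutant 7 of 56 values in 8 classes were lower and 1 was higher, and 55 of the 56 reached 10 CPM. One member was lower and none higher in each of 6 classes. These were Cajal-Retzius-like cells (13.6% lower and 4.41% higher of all genes), astroglia-like cells (13.9% and 8.76%), endothelial-like cells (5.03% and 5.12%), interneuron lineage-like cells (12.9% and 6.48%), microglia-like cells (12.9% and 9.02%) and projection neuron-like cells (12.2% and 4.71%). In oligodendrocyte precursor-like cells 1 was lower and 1 higher, against 8.66% and 5.38%, and in intermediate progenitor-like cells none was called, against 15.1% and 7.18%. In the Dbx2 and Olig1 cluster 3 of 7 were lower and none higher, against 17.8% and 8.37%. Among these 3, Braf reached 10 CPM in the control alone, so it could be called lower but not higher. A single call among 7 members is no result about the members as a set. In the 6 classes with a single call, Mapk3 was the gene called.

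**Figure D2:**
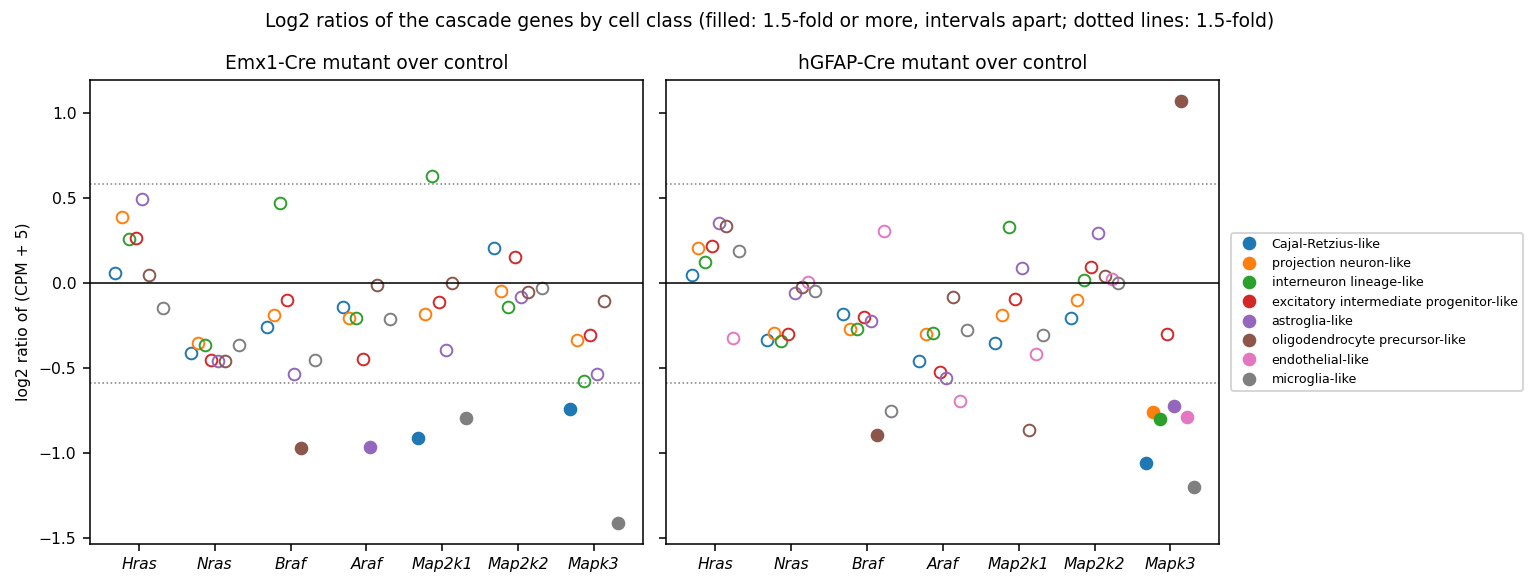
Log2 ratio of CPM + 5, mutant over control (y axis), of the 7 genes (x axis) in the named classes (colours), Emx1-Cre left and hGFAP-Cre right. Filled points differ at least 1.5-fold with intervals apart; Mapk3 reaches -1.41 in Emx1-Cre microglia-like cells, and 6 of the 8 hGFAP-Cre calls are Mapk3 lower.

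The calls were concentrated in Mapk3, which was lower in 2 of 7 classes of the Emx1-Cre mutant and 6 of 8 classes of the hGFAP-Cre mutant. In microglia-like cells it stood at 50.8 CPM (39.2 to 64.7), 59.4 CPM (49.6 to 70.6) and 143 CPM (129 to 157) in the Emx1-Cre, hGFAP-Cre and control libraries, with log2 ratios of -1.41 and -1.20. Both mutants were well apart from the control and overlapped with each other. Microglia arise outside the lineages in which either Cre driver is known to be active. The part of cell state, depth and sex in the Mapk3 values was not tested beyond the values that follow. Of the microglia-like cells, 65.7% of the Emx1-Cre, 26.9% of the hGFAP-Cre and 0.415% of the control cells were in cluster 26, led by Rgs1, Wfdc17, Gpnmb, Lyz2 and Il1b, genes known from macrophages and monocytes. It had 7 of the 10 microglia markers raised, but not P2ry12, Tmem119 or Fcrls, which tell microglia from other macrophages. In cluster 22, led by Gpr34, Fcrls and Csf1r, Mapk3 was 61.6 CPM (Emx1-Cre, 81 cells), 65.2 CPM (hGFAP-Cre, 220 cells) and 143 CPM (control, 240 cells), with log2 ratios of -1.16 and -1.08. The median UMI count of microglia-like cells was 4836 (Emx1-Cre), 6568 (hGFAP-Cre) and 11145 (control), and with every cell thinned to 2500 UMIs the log2 ratios were -1.52 and -1.39.

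In Cajal-Retzius-like cells, all of 1 cluster, Mapk3 stood at 90.9 CPM (84.8 to 97.4), 71.9 CPM (63.2 to 81.4) and 155 CPM (139 to 173) in the Emx1-Cre, hGFAP-Cre and control libraries. The log2 ratios were -0.74 and -1.06. Median UMI counts were 6097 (Emx1-Cre), 8936 (hGFAP-Cre) and 19205 (control), and after thinning the ratios were -0.45, no longer called, and -0.89. The 3 libraries did not overlap, and the control was highest.

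Astroglia-like cells had 39.5 CPM of Mapk3 (36.4 to 42.7), 34.0 CPM (31.2 to 37.1) and 59.4 CPM (55.4 to 63.7) in the Emx1-Cre, hGFAP-Cre and control libraries. The log2 ratio was -0.53 in the Emx1-Cre mutant, short of 1.5-fold, and -0.72 in the hGFAP-Cre mutant. The class was made of different clusters, cluster 2 (led by Has2, A2m and Car2) with 99.1% of the Emx1-Cre cells, cluster 3 (Prm1, Ephx1) with 90.6% of the hGFAP-Cre cells and cluster 9 (Slco1c1, Chil1, Hopx) with 86.2% of the control cells. Within cluster 2 Mapk3 was 39.5 CPM in 1884 Emx1-Cre cells, 34.3 CPM in 199 hGFAP-Cre cells and 58.1 CPM in 199 control cells, with log2 ratios of -0.51 and -0.68. The hGFAP-Cre call in this class ended under 4 of 12 alternative settings, and the smallest ratio in size was -0.54.

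Projection neuron-like cells had 55.01 CPM (51.8 to 58.4), 39.6 CPM (36.3 to 43.1) and 70.6 CPM (67.5 to 73.7) of Mapk3 in the Emx1-Cre, hGFAP-Cre and control libraries. The ratios were -0.33 and -0.76. The Emx1-Cre, hGFAP-Cre and control intervals were all apart. Here too the clusters differed, with cluster 0 (Cck, Grp) holding 63.5% of the Emx1-Cre cells, cluster 7 (Osbpl6, Fam84a) 56.8% of the hGFAP-Cre cells, and clusters 5 and 10 43.1% and 30.3% of the control cells. Within cluster 0 Mapk3 was 27.8 CPM (Emx1-Cre), 28.1 CPM (hGFAP-Cre) and 57.1 CPM (control), with ratios of -0.92 and -0.91 and the intervals of both mutants apart from the control. Within cluster 7 it was 41.6 CPM (Emx1-Cre), 24.8 CPM (hGFAP-Cre) and 47.6 CPM (control), with ratios of -0.17 and -0.82. Interneuron lineage-like cells had 40.2 CPM (23.8 to 63.5, from 18 UMIs) in the Emx1-Cre, 33.7 CPM (27.0 to 41.5) in the hGFAP-Cre and 62.3 CPM (54.5 to 70.9) in the control library, and cluster 11 held 37.6%, 58.5% and 97.9% of them in the same order of libraries. Endothelial-like cells had 76.4 CPM (52.9 to 107, 55 cells) in the hGFAP-Cre mutant and 135 CPM (118 to 155, 101 cells) in the control.

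The intermediate progenitor-like cells had 36.4, 36.6 and 46.1 CPM of Mapk3 in the Emx1-Cre, hGFAP-Cre and control libraries, a log2 ratio of -0.30 in either mutant and no call. Cluster 1 held 67.8% of the Emx1-Cre, 47.1% of the hGFAP-Cre and 9.59% of the control cells of this class, and clusters 8 and 12 held 47.4% and 37.8% of the control cells. Within clusters 1, 8, 12 and 19 the Emx1-Cre ratios were -0.45, -0.51, -0.49 and -0.67 and the hGFAP-Cre ratios -0.48, -0.61, -0.13 and -0.49. Oligodendrocyte precursor-like cells were the exception to the direction. They had 21.3 CPM (13.5 to 31.9) in the Emx1-Cre, 54.2 CPM (44.1 to 66.0) in the hGFAP-Cre and 23.2 CPM (12.4 to 39.7) in the control library, so that the hGFAP-Cre value was higher with a log2 ratio of 1.07, from 100 UMIs against 13 in the control. This call held under 9 of 12 alternative settings. The ratio turned below 0 under 2 of them, to -0.24 at a cluster resolution of 2 and to -1.003 with libraries clustered alone. The latter was called lower. The control had 65 such cells.

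**Figure D3:**
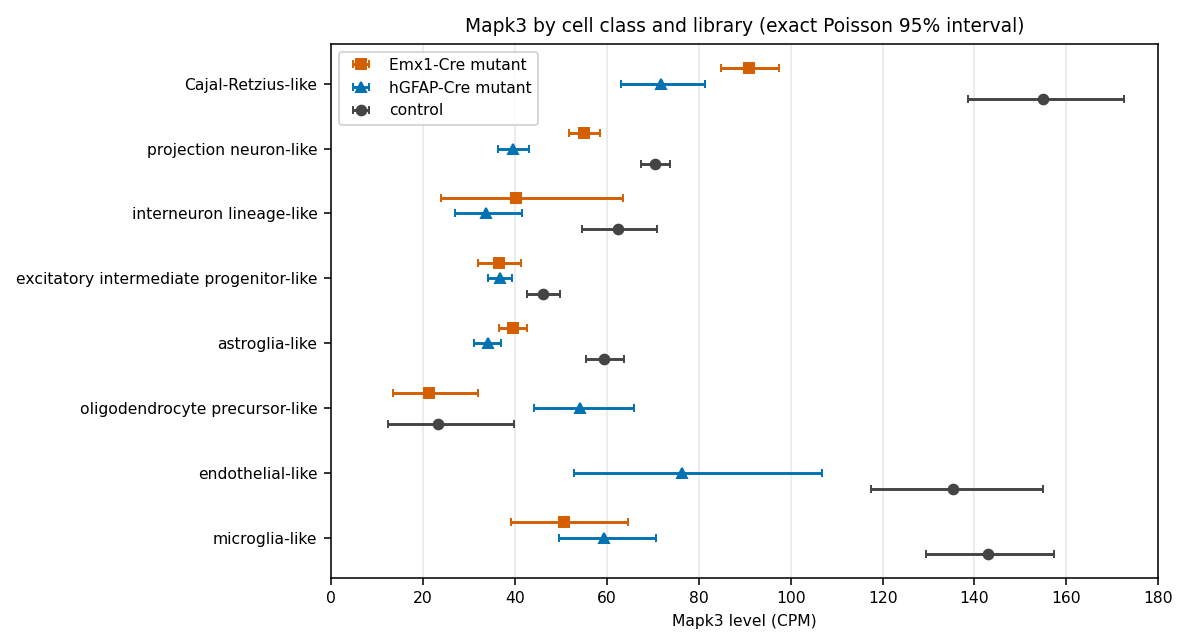
Mapk3 level (x axis, CPM) in each named class (y axis) of the Emx1-Cre, hGFAP-Cre and control libraries, with exact Poisson 95% intervals. The control is highest in every class but the oligodendrocyte precursor-like one, where the hGFAP-Cre mutant stands at 54.2 CPM and the control at 23.2 CPM.

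Levels were also compared within single clusters that held at least 50 cells of both libraries, an alternative added after the data were seen. Mapk3 was below the control in 10 of 10 clusters for the Emx1-Cre mutant, with a median log2 ratio of -0.51, and in 13 of 14 for the hGFAP-Cre mutant, with a median of -0.73. Araf was below in 10 of 10 and 14 of 14, with medians of -0.24 and -0.45, and Hras above in 9 of 10 and 13 of 14, with medians of 0.22 and 0.33. Map2k2 was divided, below in 7 of 10 and 8 of 14, with medians of -0.05 and -0.01. Nras was below in 10 of 10 and 10 of 14 (medians -0.43 and -0.21). Map2k1 was below in 7 of 10 and 10 of 14 (-0.28 and -0.21). Braf was below in 6 of 10 and 11 of 14 (-0.08 and -0.18). Fewer clusters had intervals apart in these directions: 4 (Emx1-Cre) and 10 (hGFAP-Cre) for Mapk3, 1 and 6 for Araf. For Hras 2 and 6 were apart, for Nras 3 and 2, for Map2k1 1 and 0, and for Braf 1 and 2. Neither the median ratio of all genes nor the share of all genes with intervals apart was taken per cluster. The cluster counts therefore have no background and are no result about the members. All clusters of a mutant were also set against the same control library. In most classes the median of all genes was below 0, down to -0.34 in Emx1-Cre astroglia-like cells, so ratios below 0 were not particular to these genes.

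Map2k1 was called in 2 classes of the Emx1-Cre mutant and in none of the hGFAP-Cre mutant. In Cajal-Retzius-like cells it stood at 13.9 CPM (11.6 to 16.6), 22.8 CPM (18.02 to 28.4) and 30.5 CPM (23.6 to 38.9) in the Emx1-Cre, hGFAP-Cre and control libraries, log2 ratios of -0.91 and -0.35. In microglia-like cells it stood at 20.3 CPM (Emx1-Cre, 13.3 to 29.7), 30.4 CPM (hGFAP-Cre, 23.5 to 38.7) and 38.8 CPM (control, 32.0 to 46.7), ratios of -0.79 and -0.31. In cluster 22 alone the Emx1-Cre value was 21.2 CPM and the control value 38.3 CPM (-0.72), with overlapping intervals and no call. The Emx1-Cre microglia-like value rests on 26 UMIs, and its call ended under 5 of 12 settings, thinning among them.

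In astroglia-like cells, within the reach of both Cre drivers, Map2k1 was 15.2 CPM (Emx1-Cre, 13.4 to 17.3), 23.3 CPM (hGFAP-Cre, 21.0 to 25.9) and 21.6 CPM (control, 19.2 to 24.2), log2 ratios of -0.39 and 0.09 with no call. Projection neuron-like cells had 9.85 CPM (Emx1-Cre), 9.81 CPM (hGFAP-Cre) and 11.8 CPM (control), with overlapping intervals. Map2k2 was not called in any class, with log2 ratios from -0.14 to 0.21 in the Emx1-Cre mutant and from -0.20 to 0.29 in the hGFAP-Cre mutant. In astroglia-like cells it stood at 178 CPM (171 to 184), 232 CPM (224 to 239) and 188 CPM (181 to 196) in the Emx1-Cre, hGFAP-Cre and control libraries.

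The Map2k1 share of the MEK pair was below the control in 5 of 7 classes of the Emx1-Cre mutant, 2 of them with intervals apart, and in 7 of 8 classes of the hGFAP-Cre mutant, 0 of them apart. Over all kept cells it was 6.03% (Emx1-Cre, 5.67 to 6.40), 7.05% (hGFAP-Cre, 6.68 to 7.43) and 7.82% (control, 7.41 to 8.24). In Cajal-Retzius-like cells it was 5.26% (Emx1-Cre, 4.396 to 6.23), 10.8% (hGFAP-Cre, 8.65 to 13.3) and 12.3% (control, 9.65 to 15.4), so the Emx1-Cre library was apart from the other two. In astroglia-like cells it was 7.90% (Emx1-Cre), 9.15% (hGFAP-Cre) and 10.3% (control), and in projection neuron-like cells 4.56% (Emx1-Cre), 4.71% (hGFAP-Cre) and 5.27% (control).

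Of the RAF kinases, Araf was called lower in Emx1-Cre astroglia-like cells. It stood there at 37.8 CPM (34.8 to 40.9), 51.5 CPM (48.0 to 55.2) and 78.2 CPM (73.6 to 83.1) in the Emx1-Cre, hGFAP-Cre and control libraries, with log2 ratios of -0.96 and -0.56. The 3 intervals were apart. Within cluster 2 alone, however, it was 37.5 CPM (Emx1-Cre), 35.2 CPM (hGFAP-Cre) and 44.4 CPM (control), with ratios of -0.22 and -0.30 and overlapping intervals. All genes of these cells had median ratios of -0.34 (Emx1-Cre) and -0.11 (hGFAP-Cre). Genes of the X chromosome other than Xist and Tsix had medians of -0.30 and -0.14. Araf was below the control in 7 of 7 and 8 of 8 classes, and below the class median of all genes in 4 of 7 and 7 of 8. The cluster 2 values do not stand for all clusters. In projection neuron cluster 0 Araf was 54.6 CPM (Emx1-Cre), 63.4 CPM (hGFAP-Cre) and 110 CPM (control). The log2 ratios there were -0.95 and -0.75, with intervals apart. Intervals were apart in 1 of 10 Emx1-Cre and 6 of 14 hGFAP-Cre clusters, with no share of all genes taken per cluster.

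Braf was called lower in the oligodendrocyte precursor-like cells of both mutants, at 28.6 CPM (19.5 to 40.7), 30.4 CPM (22.9 to 39.4) and 60.7 CPM (42.1 to 84.9) in the Emx1-Cre, hGFAP-Cre and control libraries. The log2 ratios were -0.97 and -0.89. These rest on 31 Emx1-Cre, 56 hGFAP-Cre and 34 control UMIs, and the calls held under 7 and 9 of 12 settings. In the Dbx2 and Olig1 cluster, with 134 hGFAP-Cre and 909 control cells, the 3 genes called lower were Braf, Araf and Mapk3. Braf was 9.38 CPM in hGFAP-Cre cells, from 9 UMIs, and 22.3 CPM in control cells (log2 ratio -0.93), Araf 30.2 CPM in hGFAP-Cre and 58.3 CPM in control cells (-0.84) and Mapk3 34.4 CPM in hGFAP-Cre and 55.7 CPM in control cells (-0.62). Braf reached 10 CPM in the control cells alone, so it could be called lower but not higher. These 3 calls were not recomputed under the alternative settings. The Braf share of the RAF pair was 28.8%, 33.1% and 28.5% over all kept cells and 27.2%, 27.2% and 27.1% in projection neuron-like cells of the Emx1-Cre, hGFAP-Cre and control libraries.

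With the settings as reported neither RAS gene was called in any class, and most of their log2 ratios lay on opposite sides of 0. Hras was above the control in 6 of 7 classes of the Emx1-Cre mutant and 7 of 8 of the hGFAP-Cre mutant, with ratios up to 0.50 and 0.35. Nras was below it in 7 of 7 and 7 of 8 classes, with ratios down to -0.46 and -0.34. In projection neuron-like cells Hras was 344 CPM (336 to 352), 302 CPM (292 to 311) and 261 CPM (255 to 267), and Nras 56.6 CPM (53.3 to 60.1), 59.2 CPM (55.2 to 63.4) and 73.6 CPM (70.5 to 76.8), in the Emx1-Cre, hGFAP-Cre and control libraries. The class intervals of either mutant were apart from the control for both genes. Clusters 14 and 16, where Hras was 376 and 469 CPM in the Emx1-Cre and 351 and 427 CPM in the hGFAP-Cre library, held 13.5% and 18.7% of the Emx1-Cre, 17.8% and 5.34% of the hGFAP-Cre and 0.561% and 1.15% of the control cells. Cluster 21, on which the control level rested, held 0.0544% of the Emx1-Cre, 0.538% of the hGFAP-Cre and 12.9% of the control cells. Class makeup thus differed in both directions. Within clusters 0 and 7 the Emx1-Cre ratios were 0.28 and 0.17 for Hras and -0.25 and -0.46 for Nras, all with overlapping intervals. The hGFAP-Cre ratios there were 0.72 and 0.14 for Hras, the first with intervals apart, and 0.05 and -0.26 for Nras, with overlapping intervals. Relative to the median ratio of all genes in a class, Hras was above in 7 of 7 and 7 of 8 classes and Nras below in 7 of 7 and 5 of 8.

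The Hras share of the pair was above the control in 7 of 7 classes of the Emx1-Cre mutant and 7 of 8 of the hGFAP-Cre mutant, 4 of them with intervals apart in each. Over all kept cells it was 79.8% (Emx1-Cre, 79.3 to 80.3), 73.9% (hGFAP-Cre, 73.3 to 74.4) and 70.0% (control, 69.4 to 70.6). In projection neuron-like cells it was 85.9% (Emx1-Cre, 85.1 to 86.6), 83.6% (hGFAP-Cre, 82.5 to 84.6) and 78.0% (control, 77.2 to 78.8), and in the intermediate progenitor-like cells 73.8% (Emx1-Cre), 70.8% (hGFAP-Cre) and 62.5% (control). Astroglia-like cells had 73.1% (Emx1-Cre, 71.8 to 74.4), 64.7% (hGFAP-Cre, 63.3 to 66.1) and 57.7% (control, 56.0 to 59.4), the widest gap between libraries among the named classes. Hras itself was 199 CPM (Emx1-Cre), 217 CPM (hGFAP-Cre) and 202 CPM (control) within astroglial cluster 2, where its log2 ratios were -0.02 and 0.10. Nras was 72.9 CPM (Emx1-Cre), 89.8 CPM (hGFAP-Cre) and 101 CPM (control) in that cluster. Its ratios there were -0.45, with intervals apart, and -0.17, with overlapping intervals.

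**Figure D4:**
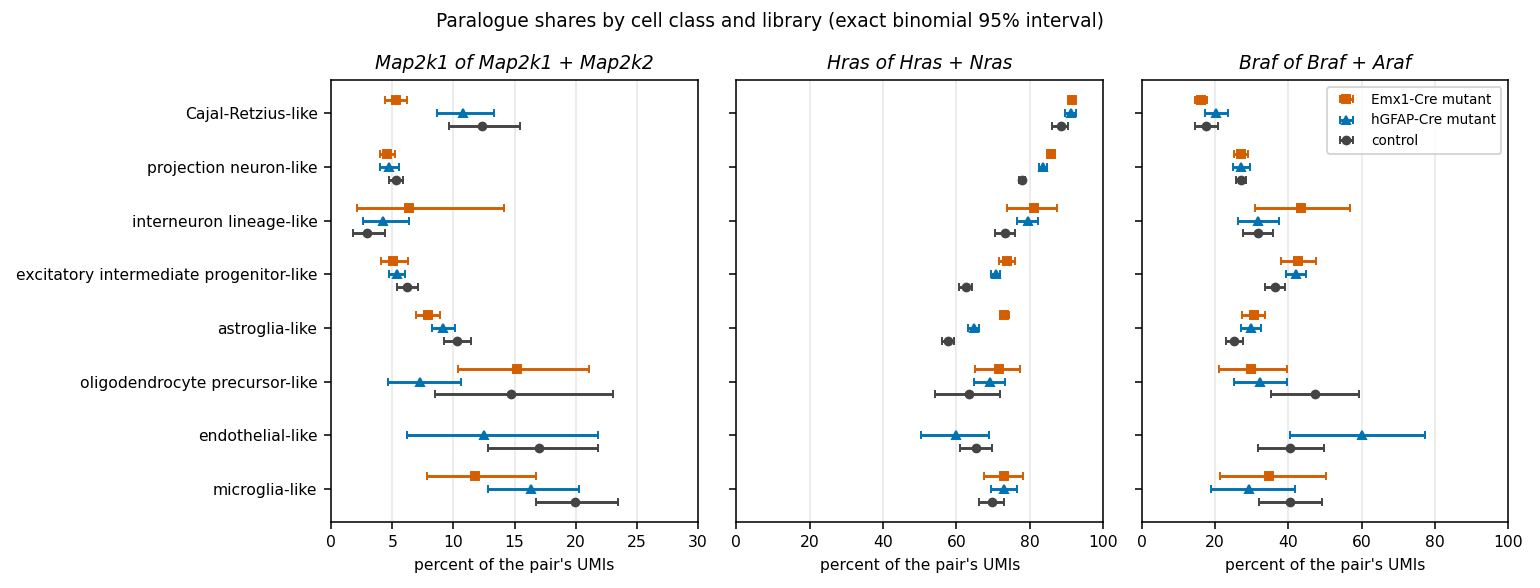
Share of Map2k1, Hras and Braf in the UMIs of their pair (x axis, percent, with exact binomial 95% intervals) by named class (y axis) and library. The Hras share of projection neuron-like cells is 85.9%, 83.6% and 78.0% in the Emx1-Cre, hGFAP-Cre and control libraries, and the Braf share there is 27.2%, 27.2% and 27.1%.

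Ependymal-like cells, which line the ventricles, were compared with no control because that library held 32 of them. The 1193 Emx1-Cre cells had 8.03 CPM (6.51 to 9.81) of Mapk3, 20.9 CPM of Araf, 277 CPM of Map2k2 and 241 CPM of Hras. The 397 hGFAP-Cre cells had 10.7 CPM (8.15 to 13.8) of Mapk3, 19.2 CPM of Araf, 265 CPM of Map2k2 and 266 CPM of Hras. The class held 2 clusters. Cluster 18, led by Ccno, Mcidas and Myb, genes of cells that are becoming multiciliated, had 318 CPM of Hras in the Emx1-Cre and 333 CPM in the hGFAP-Cre library, and cluster 17, led by Tmem212, had 181 CPM in the Emx1-Cre and 214 CPM in the hGFAP-Cre library. In the split by Mki67 and Top2a, Hras was 272 CPM in cells with such a UMI and 155 CPM in the others of the Emx1-Cre library (log2 ratio 0.79), and 290.3 CPM in cells with such a UMI and 163 CPM in the others of the hGFAP-Cre library (0.81). Mapk3 was 5.05 CPM in Emx1-Cre cells with such a UMI and 16.0 CPM in the others (-1.07). It reached 10 CPM in the others alone, so it could be called lower but not higher. Such a UMI was found in 809 of the 1193 Emx1-Cre and 302 of the 397 hGFAP-Cre cells, and cells on their way to multiple cilia are known to use cell cycle genes without dividing, so the split does not single out dividing cells here. In this split 1 member was higher and 1 lower in the Emx1-Cre library, against 12.3% and 12.1% of all genes, and 1 higher and 0 lower in the hGFAP-Cre library, against 6.13% and 7.18%.

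The other genes of the pathway were described in the astroglia-like and projection neuron-like classes from 6 lists with 79 genes, by counts of called genes and the median log2 ratio. In Emx1-Cre astroglia-like cells the 7 cascade genes had a median of -0.46, with all genes at -0.34. The counts of this class stand against 34.2% of all genes lower and 9.72% higher. Of 10 RAS adaptors and exchange factors, 1 was higher and 2 lower (median -0.44), with the exchange factor Sos1 at 12.5 CPM in the mutant and 22.1 CPM in the control. Of 6 RAS GTPase-activating proteins, which switch RAS off, 4 were lower (median -0.70), Rasal2 most at 19.0 CPM in the mutant and 60.1 CPM in the control. Of 10 scaffolds and RAF or ERK regulators, 2 were lower (median -0.16), and Pea15a, which holds ERK in the cytoplasm, stood at 373 CPM in the mutant and 816 CPM in the control. Of 8 ERK-activated kinases and TCF factors 4 were lower (median -0.51), and of 11 genes of parallel MAP kinase cascades 2 were lower (median -0.38).

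In hGFAP-Cre astroglia-like cells the 7 cascade genes had a median of -0.06 and all genes one of -0.11, and 13.9% of all genes were lower and 8.76% higher. Of 9 RAS adaptors and exchange factors 0 were called, of 6 GTPase-activating proteins 1 was lower (Rasal2, 38.4 CPM in the mutant and 60.1 CPM in the control), and of 10 scaffolds and regulators 1 was higher, Lamtor2, a subunit of a lysosomal MEK scaffold, at 370.1 CPM in the mutant and 245 CPM in the control. The ETS factor Elk3, a target of ERK phosphorylation, was lower, at 15.9 CPM in the mutant and 40.5 CPM in the control. Of 14 ERK response genes 9 were lower and 2 higher, with a median of -0.92. Egr1, an immediate early transcription factor, was 39.4 CPM in the mutant and 437 CPM in the control. The ETS factor Etv5 was 20.3 CPM in the mutant and 85.1 CPM in the control, and Etv4 16.9 CPM in the mutant and 63.0 CPM in the control. In Emx1-Cre astroglia-like cells the same list had 3 of 14 higher and 3 lower with a median of -0.19. Its largest ratios were those of Ier3, at 173 CPM in the mutant and 23.6 CPM in the control, and of the feedback inhibitor Spry1. Spry1 stood at 77.4 CPM in the mutant and 11.3 CPM in the control, and Dusp6 at 28.7 and 11.5 CPM. Cluster 2 held 99.1% of the Emx1-Cre, cluster 3 90.6% of the hGFAP-Cre and cluster 9 86.2% of the control astroglia-like cells. The list ratios are not given within clusters, so cell state and genotype cannot be told apart in them. Whether the mutants differ in this list was not tested. This list was drawn up with earlier results of these data known.

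In projection neuron-like cells of the Emx1-Cre mutant the median of the 7 cascade genes was -0.19 and that of all genes -0.25. There 7 of 9 ERK response genes were lower (median -0.88), against 21.7% of all genes lower and 6.63% higher. Etv5 stood at 0.361 CPM in the mutant and 12.5 CPM in the control. Etv5, Spred3 (1.03 and 11.6 CPM) and Dusp4 (3.40 and 15.7 CPM) reached 10 CPM in the control alone. In the other mutant, hGFAP-Cre, the medians were -0.27 and -0.14. Of 9 ERK response genes 5 were lower (median -0.66), against 12.2% of all genes lower and 4.71% higher. Etv5 (0.664 CPM) and Spred3 (2.36 CPM) again reached 10 CPM in the control alone. A gene that passes through the control alone can be counted as lower but not as higher. These counts and medians of ERK response genes therefore lean to the lower side. Mapk10, a JNK kinase of a parallel cascade, was lower in projection neuron-like cells of both mutants, at 42.4 CPM (Emx1-Cre), 52.9 CPM (hGFAP-Cre) and 90.8 CPM (control). In astroglia-like cells it was called higher in the hGFAP-Cre mutant, at 19.6 CPM in the mutant and 10.04 CPM in the control. Of 11 parallel cascade genes 3 were lower in each mutant, with medians of -0.36 and -0.30. Among them Mapk11, at 8.97 CPM (Emx1-Cre), 9.15 CPM (hGFAP-Cre) and 17.2 CPM (control), reached 10 CPM in the control alone. These counts lean to the lower side for the same reason.

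**Figure D5:**
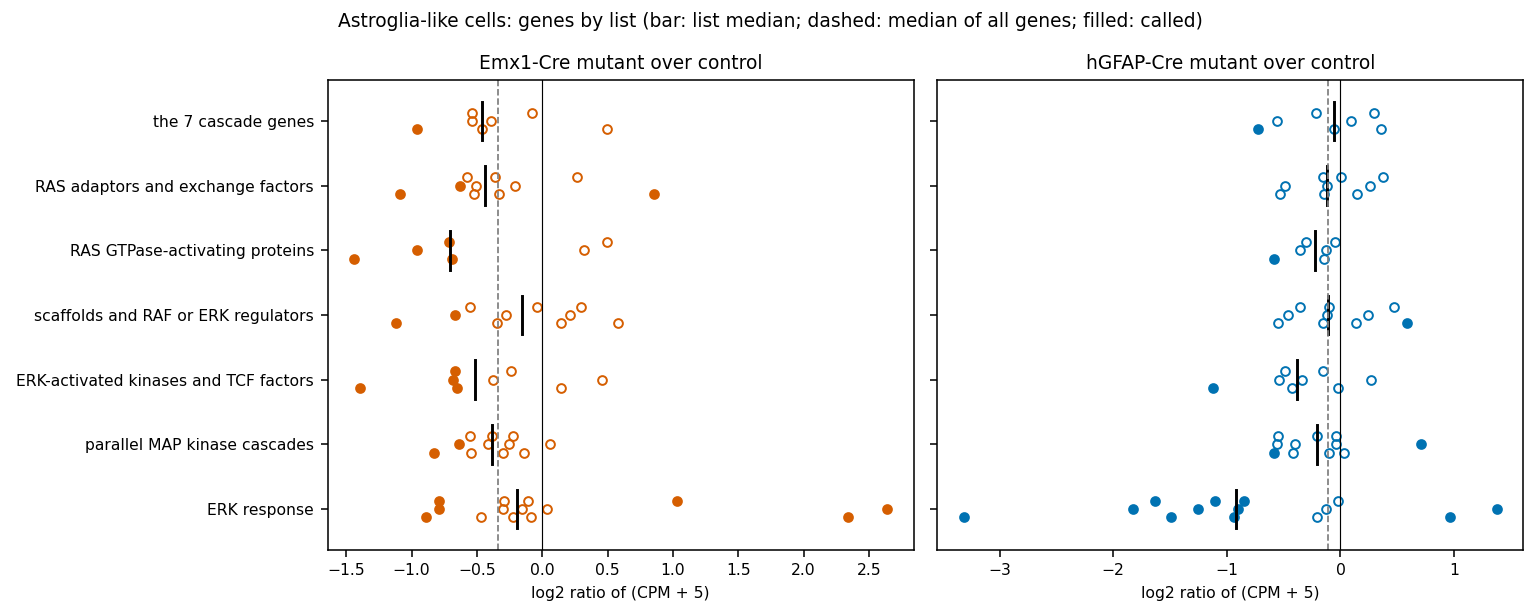
Log2 ratio of CPM + 5, mutant over control (x axis, a scale of its own per panel), of the genes of 7 lists, the cascade genes first (y axis) in astroglia-like cells, Emx1-Cre left and hGFAP-Cre right. Each point is a gene, filled points are called, bars are list medians and the dashed line is the median of all genes; the 7 cascade genes have medians of -0.46 and -0.06, and the ERK response genes -0.19 and -0.92.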

How the data were processed

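The deposited matrices hold raw UMI counts per gene and called barcode, made with Cell Ranger 5.0.0 per the file headers and on mm10 per the submitters' processing notes. No column of other samples was present. Cells with at least 1000 genes and under 10% mitochondrial UMIs were kept, and barcodes that Scrublet (in scanpy 1.11.5) called doublets were removed, 7.61% (Emx1-Cre), 8.16% (hGFAP-Cre) and 4.53% (control). The 3 libraries were clustered together without batch correction (2000 variable genes, 30 principal components, 15 neighbours, Leiden resolution 1, leidenalg 0.10.2). The variable genes left out the cascade and list genes, immediate early genes, Prm1, Xist, Tsix and Y-linked, mitochondrial, ribosomal and haemoglobin genes. A cluster took a class name when at least 3 of that class's markers were raised 2-fold and found in 25% of its cells; the names are rebuilt here and may differ from the study's.

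For each library, the counts of the cells in a class were added up and scaled to CPM. Intervals are exact 95% Poisson or Clopper-Pearson (scipy 1.17.1) and cover counting error only. Mutant and control were compared as the log2 ratio of CPM + 5. A call needs 1.5-fold (0.58 on the log2 scale), intervals apart and at least 10 CPM in either library, in classes of at least 50 cells in both. The rule was tested on simulated data. The members and lists were chosen with earlier results of these data known. All 7 members are named, and other list genes come from the 3 with the largest absolute log2 ratio among those called in a list, class and mutant. Results on some related genes are not reported here.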

Additional observations from a re-analysis of the deposited data

Results flagged for a closer look

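Mapk3 differed in direction between classes of the hGFAP-Cre mutant. Its log2 ratio over control was 1.07 in oligodendrocyte precursor-like cells, from 252 mutant and 65 control cells, and below 0 in the other 7 named classes, down to -1.20 in microglia-like cells. The difference between classes was not tested, and 2 of 12 alternative settings gave the oligodendrocyte precursor-like cells a ratio below 0. Under 1 of these settings Mapk3 was called lower there.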

How the results depend on the processing

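No paired analysis was possible because each genotype is 1 library. Under 12 alternative settings the number of lower member calls ranged from 4 to 7 in the Emx1-Cre mutant (6 as reported) and from 6 to 10 in the hGFAP-Cre mutant (7 as reported). Higher calls in the Emx1-Cre mutant numbered 0 as reported, 1 with cells thinned to 2500 UMIs and 2 with ratios centred on the median of all genes. All of these were Hras, in astroglia-like cells under both settings and in projection neuron-like cells with centring. The centred ratios were 0.83 and 0.64. Higher calls in the hGFAP-Cre mutant numbered 1 as reported, 2 each with at least 2000 genes per cell, with mitochondrial shares under 5% and with doublets kept, and 0 each at resolution 2 and with thinning. The Mapk3 ratio in hGFAP-Cre oligodendrocyte precursor-like cells turned to -0.24 at resolution 2 and to -1.003, called lower, with libraries clustered alone. Thinning moved the Hras, Braf and Map2k1 shares of projection neuron-like cells to 83.9%, 32.3% and 3.33% (Emx1-Cre), the Hras and Braf shares to 82.5% and 31.4% (hGFAP-Cre), and all of them to 73.0%, 30.9% and 3.89% (control). It also moved the Braf share of Emx1-Cre astroglia-like cells to 22.3% and the Hras share of hGFAP-Cre astroglia-like cells to 62.7%. In Emx1-Cre projection neuron-like cells the Hras and Braf shares were 87.5% and 23.2% with at least 2000 genes, and 87.4% and 23.6% at resolution 2. In hGFAP-Cre projection neuron-like cells the Hras share was 85.3% with at least 2000 genes, and the Hras and Braf shares were 81.9% and 29.8% with libraries clustered alone. The cause of these moves was not tested. Of the other values that answer a comparison, 132 stayed within 1.5 times the reported count or inside the reported interval. With no minimum level, 19.5% of all genes were lower and 5.82% higher in Emx1-Cre astroglia-like cells, and 7.83% and 5.62% in hGFAP-Cre ones. Among the ratios of class sums, cluster 13 included, the smallest count was 5 UMIs for Map2k1 in Emx1-Cre interneuron lineage-like cells. Next came 9 for Braf in hGFAP-Cre cells of cluster 13 and 10 for Map2k1 in hGFAP-Cre endothelial-like cells. Ratios within the other single clusters can rest on fewer UMIs, with Map2k1 at 3.04 CPM in the 94 Emx1-Cre cells of cluster 8.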

Other observations

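Mural-like cells, the contractile cells of vessel walls, were too few in the control (36) for a comparison. In both mutants their Map2k1 level was above that of the other named classes of at least 50 cells, at 45.6 CPM (33.4 to 60.8, 192 cells) in the Emx1-Cre library and 58.9 CPM (36.5 to 90.1, 82 cells) in the hGFAP-Cre library. These intervals overlapped those of the class next in the order, the oligodendrocyte precursor-like cells (up to 38.5 CPM) in the Emx1-Cre library and the microglia-like cells (up to 38.7 CPM) in the hGFAP-Cre library, and their Mapk3 stood at 29.7 and 30.9 CPM.

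Clusters 4, 15 and 23 stayed unnamed and held too few control cells to be compared. Cluster 4, led by Lmo1, Kcnq3 and Rnd2, had 5.70 CPM of Map2k1 (3.87 to 8.09) in 1561 Emx1-Cre cells and 4.02 CPM (1.30 to 9.37) in 327 hGFAP-Cre cells, with 23.5 and 24.9 CPM of Mapk3. Cluster 15, led by Ogn, H19, Acta2 and Cryab, had 24.4 CPM of Map2k1 in either library and 26.7 and 32.5 CPM of Mapk3 in 143 Emx1-Cre and 766 hGFAP-Cre cells. Cluster 23, led by Calb2 and Tac2, had 6.502 CPM of Map2k1 and 32.5 CPM of Mapk3 in 472 hGFAP-Cre cells.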
